A study of Mus musculus with 6 samples.

Results

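The genes described here are 10 members of the basement membrane gene set: the type IV collagen chains Col4a1, Col4a2, Col4a3, Col4a4 and Col4a5, the collagens Col15a1 and Col18a1, the nidogens Nid1 and Nid2, and the heparan sulfate proteoglycan perlecan (Hspg2). They were chosen by symbol, with earlier results of these data known. All 10 were found in each of 6 count tables, which hold 30828 to 32285 gene rows. The tables come from droplet single-cell RNA sequencing with 1 library per condition, each pooling 3 mice, so no difference between conditions has a replicate and none was tested. All FBs (fibroblasts) were sorted as GFP+ cells from male Pdgfra-GFP reporter mice, in which GFP is made from the Pdgfra locus, so the sort is meant to keep cells with Pdgfra activity. The sorted lung libraries still held 66 to 344 leukocyte and 9 to 55 endothelial barcodes. Single-dose libraries are from lungs at day 14 after 1 oropharyngeal dose of PBS (50 ul) or bleomycin, a drug that injures the lung and leads to fibrosis. The bleomycin dose is given as 2 U/kg in the protocol and as 4 U/kg in the treatment label, and this conflict was not resolved. Repetitive libraries are from mice given 3 weekly doses of PBS or of bleomycin (1 U/kg in each of the opening weeks, then 0.5 U/kg), with lungs taken 2 weeks after the last dose. Organoid libraries are alveolar cultures grown for 2 weeks in matrigel, itself a basement membrane extract. They combined Tomato+ alveolar type 2 epithelial cells (AEC2s) from tamoxifen-treated SpcCreER donors with GFP+ FBs from PBS mice (normal) or from mice at day 14 after 2 U/kg bleomycin (fibrogenic). The epithelial cells of the organoids therefore descend from AEC2s and are not a sample of the lung's epithelium.

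A basement membrane is a thin sheet of matrix under epithelium and endothelium. Type IV collagen chains assemble as trimers that join into a network. The α1 and α2 chains, from Col4a1 and Col4a2, make the network found in nearly all tissues, whereas the α3, α4 and α5 chains, from Col4a3, Col4a4 and Col4a5, make the network of the kidney glomerulus and the alveolar wall that is affected in Alport syndrome. Nidogens join the collagen IV network to the laminin network, perlecan is a large proteoglycan that binds both, and collagens XV and XVIII sit where basement membrane meets the connective tissue below, with endostatin being a fragment of collagen XVIII.

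In GRCm38 the type IV collagen genes lie in head-to-head pairs. Col4a1 (chr8:11198423-11312826, minus strand) and Col4a2 (chr8:11312805-11449287, plus strand) start 21 bases apart and their opening exons overlap on opposite strands. Col4a4 (chr1:82448423-82586849, minus strand) and Col4a3 (chr1:82586921-82722059, plus strand) start 72 bases apart. Col4a5 (chrX:141475385-141689234, plus strand) starts 1309 bases from Col4a6. The others are Col15a1 (chr4:47208161-47313167) and Hspg2 (chr4:137468769-137570630), Nid1 (chr13:13437551-13512269) and Nid2 (chr14:19751265-19811787) on the plus strand, and Col18a1 (chr10:77052178-77166548) on the minus strand. No exon of another gene overlapped a member on its own strand. 8 of the 10 members matched a promoter window in RefSeq (GRCm38.p6), which spans 250 bases before to 50 bases after the start that RefSeq gives. For Col15a1 that start differs from the GENCODE start given above, and the printed window lies wholly before the latter. Those of the Col4a1 and Col4a2 pair, of Col4a4 and of Col15a1 are printed 5′ to 3′ because these genes had the most different patterns below: the pair was higher in FBs of both bleomycin libraries, Col4a4 was highest in epithelial cells with alveolar type 1 markers, and Col15a1 differed widely between FB subgroups. Capitals mark GC boxes (GGGCGG or CCGCCC) and CCAAT boxes (CCAAT or ATTGG), searched on both strands; no match overlapped another.
Col4a1, chr8:11312777-11313076, minus strand: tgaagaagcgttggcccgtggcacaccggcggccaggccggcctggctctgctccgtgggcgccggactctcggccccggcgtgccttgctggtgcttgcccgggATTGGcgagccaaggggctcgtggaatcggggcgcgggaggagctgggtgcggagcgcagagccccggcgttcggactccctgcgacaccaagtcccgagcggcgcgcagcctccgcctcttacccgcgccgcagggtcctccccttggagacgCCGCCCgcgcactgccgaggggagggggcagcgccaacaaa
Col4a2, chr8:11312555-11312854, plus strand: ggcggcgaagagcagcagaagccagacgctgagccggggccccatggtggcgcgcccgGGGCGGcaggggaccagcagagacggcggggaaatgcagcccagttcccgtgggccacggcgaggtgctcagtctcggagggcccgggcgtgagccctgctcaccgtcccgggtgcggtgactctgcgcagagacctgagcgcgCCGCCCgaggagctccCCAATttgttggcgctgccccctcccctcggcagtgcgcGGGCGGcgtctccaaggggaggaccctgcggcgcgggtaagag
Col4a4, chr1:82586800-82587099, minus strand: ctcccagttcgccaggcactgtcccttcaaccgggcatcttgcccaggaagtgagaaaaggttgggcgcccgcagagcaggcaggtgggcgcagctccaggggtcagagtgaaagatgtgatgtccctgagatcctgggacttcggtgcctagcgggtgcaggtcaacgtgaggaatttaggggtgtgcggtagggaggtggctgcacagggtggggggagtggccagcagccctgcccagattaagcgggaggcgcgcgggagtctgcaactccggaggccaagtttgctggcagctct
Col15a1, chr4:47207762-47208061, plus strand: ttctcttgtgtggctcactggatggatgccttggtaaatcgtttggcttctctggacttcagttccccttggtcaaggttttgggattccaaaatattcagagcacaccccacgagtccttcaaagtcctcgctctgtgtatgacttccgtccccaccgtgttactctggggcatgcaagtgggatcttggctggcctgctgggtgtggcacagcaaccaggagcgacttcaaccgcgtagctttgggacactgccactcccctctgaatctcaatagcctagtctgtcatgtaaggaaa
The Col4a1 and Col4a2 windows share 78 bases, read from opposite strands. GC content was 74.0% for Col4a1 and 73.7% for Col4a2, 63.3% for Col4a4 and 52.3% for Col15a1, against a median of 52.7% over 32817 promoter windows. Col4a1 had 1 GC box and Col4a2 had 3, and each had 1 CCAAT box, whereas the Col4a4 and Col15a1 windows held neither motif. The Col4a1 GC box lies in the shared bases and is the same site as 1 of the Col4a2 boxes, read from the opposite strand. Of all windows, 35.6% held a GC box and 37.4% a CCAAT box. TATAAA (13.6% of windows) and the AP-1 letters TGACTCA (5.20%), also searched on both strands, were found in 0 of the member windows.

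Depth ranged from 7201081 to 238618743 UMIs (unique molecular identifiers, 1 for each captured transcript) and from 1015 to 10737 barcodes (cells) per library, with medians of 2478 to 36841 UMIs per barcode. Barcodes were put in a cell group by marker UMIs, which gave 864 to 9312 FBs per library. Levels are the summed UMIs of a group as CPM, the UMIs of a gene per 1000000 UMIs. Intervals are exact 95% intervals that cover counting error only and leave out the spread between mice. UMIs are counted at transcript ends, so levels are compared for 1 gene across groups and not between genes. The lung libraries held 1 to 14 epithelial barcodes, so epithelium was compared with FBs in organoids and endothelium with FBs in the repetitive PBS library. Libraries shared at most 30 barcode sequences in a pair. In the lung FBs the epithelial list summed to 0.842 to 2.86 CPM and the endothelial list to 10.1 to 18.6 CPM, against 5707 to 13422 CPM for the FB list. From PBS to bleomycin the leukocyte list in FBs went from 39.3 to 94.3 CPM after a single dose and from 14.2 to 82.8 CPM after repetitive doses, with all 8 genes detected in each. The mural list (smooth muscle and pericyte genes) went from 64.8 to 204 CPM, with Myh11 at 0 in the single-dose PBS FBs, and from 47.5 to 92.3 CPM. The mesothelial list went the opposite way, from 156 to 96.9 CPM and from 126 to 69.1 CPM. Of its 5 genes, Msln and Lrrn4 were at 0 in single-dose PBS FBs, and Msln was at 0 in repetitive bleomycin FBs. The 27 mural barcodes of the repetitive bleomycin library held Col15a1 at 298%, Col18a1 at 299.7% and Col4a1 at 122% of the FB level. Other members were below the FB level there, such as Nid1 at 54.5% and Col4a5 at 46.2%. The part of RNA from these other cell types in the member levels of FBs was not tested. Leukocyte barcodes of the lung libraries held Col4a1 at 26.7 to 51.7 CPM and Col4a2 at 16.5 to 39.0 CPM, levels that can include RNA of other cells.

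In FBs of the lung, most members were at higher levels in the bleomycin library than in the PBS library of the same exposure. Type IV collagen α1 and α2 chains and Col15a1 were more than 2-fold higher after both exposures, and Nid1 and Hspg2 after the single dose. Of the 7 members with a mean of at least 5 CPM in the single-dose comparison, 5 were higher by 2-fold or more and 0 were lower, where 6.60% of the 9727 genes past that filter were higher and 3.65% were lower. In the repetitive comparison 3 of 9 members were higher and 0 lower, against 5.58% higher and 2.22% lower of 10430 genes. Because the members were chosen with earlier results of these data known, the shares stand side by side as a description. The median log2 ratio, after adding 1 CPM, was 1.38 for the 7 members and 0.95 for the 9 members, and it was 0.06 and 0.09 for all genes past the filter. Over all 10 members the medians were 1.31 and 0.79.

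**Figure D1:**
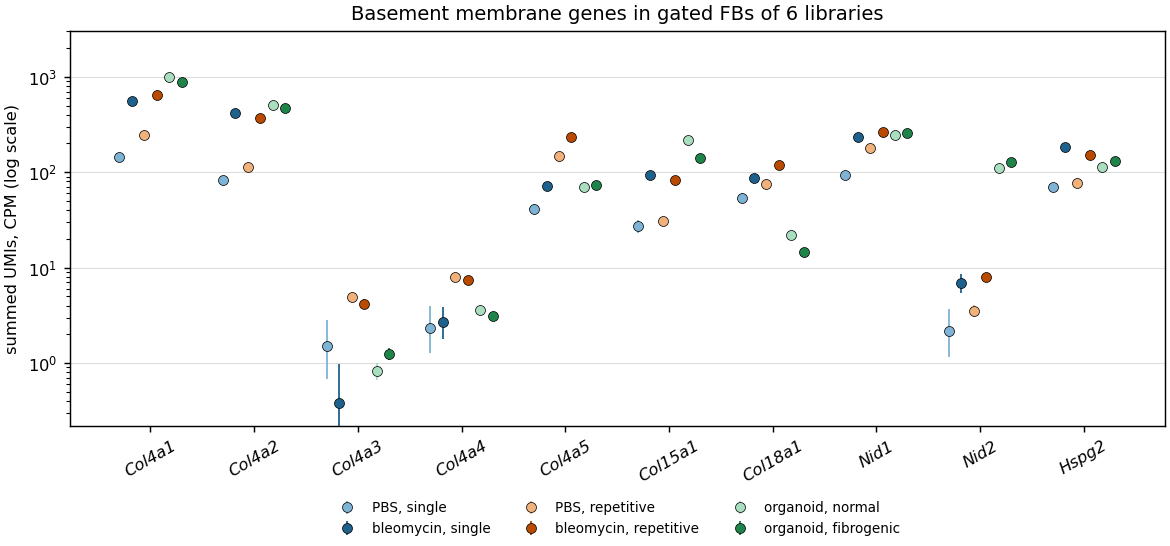
Level of the 10 members in gated FBs of the 6 libraries, in CPM on a log axis; points are summed UMIs of 1 library and bars are exact 95% Poisson intervals. Col4a1 ranged from 143 CPM in single-dose PBS FBs to 984 CPM in FBs of the normal organoids, and Nid2 was at 2.18 to 7.97 CPM in the lung and at 112 and 128 CPM in the organoids.

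Col4a1, which encodes the α1 chain, was at 143 CPM in single-dose PBS FBs, 564 CPM in single-dose bleomycin FBs, 247 CPM in repetitive PBS FBs and 649 CPM in repetitive bleomycin FBs. Both bleomycin libraries were above both PBS libraries. The fold was 3.95 (3.68 to 4.25) after the single dose and 2.62 (2.58 to 2.68) after repetitive doses. Its partner Col4a2 was at 82.2 and 414 CPM in the single-dose libraries and at 114 and 371 CPM in the repetitive libraries, a fold of 5.03 (4.58 to 5.53) and 3.26 (3.17 to 3.35). It was the member with the largest fold in each exposure among those past the filter.

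A higher sum can come from more cells with the transcript or from more transcript in each. The share of cells with a UMI at a fixed depth rises in both cases, so the shares below do not tell these apart. With each cell thinned to 2000 UMIs, the share of FBs with a Col4a1 UMI went from 24.3% to 60.0% after the single dose, and from 35.9% to 61.6% after repetitive doses. Shallower cells were left out, so these are shares of 851 of 897 and 827 of 864 single-dose FBs and of 5337 of 5519 and 5472 of 9312 repetitive FBs. Leukocyte barcodes thinned the same way had a Col4a1 UMI in 1.65% to 5.97% of cells, so the FB shares were above the level in cells that should lack the gene. Without thinning the shares were 53.8% and 88.2% after the single dose and 79.4% and 69.1% after repetitive doses. The last pair goes against the CPM, and the repetitive bleomycin FBs had a median of 2707 UMIs against 10430 in repetitive PBS FBs, so no order was read from it.

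The α3, α4 and α5 chains did not move as a set. Col4a5 was higher in both bleomycin libraries, at 41.4 and 72.1 CPM after the single dose (fold 1.74, 1.51 to 2.02) and at 149 and 234 CPM after repetitive doses (fold 1.57, 1.52 to 1.61). Neither fold reached 2. Col4a3 had 9 and 4 UMIs in all single-dose FBs, 1.51 and 0.382 CPM, and was at 4.90 and 4.18 CPM in the repetitive libraries. Col4a4 was at 2.34 and 2.67 CPM and at 8.01 and 7.44 CPM. For the repetitive libraries the folds of 0.853 (0.719 to 1.01) and 0.928 (0.815 to 1.06) include 1 over all FBs, though adventitial FBs of the same libraries, described below, held less of both with bleomycin.

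Col15a1, the collagen of the outer face of the basement membrane, was at 27.1 and 93.4 CPM in the single-dose libraries and at 30.5 and 83.5 CPM in the repetitive ones. The folds were 3.44 (2.91 to 4.09) and 2.73 (2.59 to 2.89), and the PBS libraries of both exposures lay close together. Col18a1, the source of endostatin, was at 54.3 and 87.6 CPM and at 75.5 and 118 CPM. Its folds of 1.61 (1.42 to 1.84) and 1.56 (1.50 to 1.62) were below 2.

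Among the linkers, Nid1 was at 93.3 and 234 CPM after the single dose, a fold of 2.50 (2.28 to 2.75), and at 181 and 267 CPM after repetitive doses, a fold of 1.48 (1.44 to 1.51). Hspg2 was at 70.2 and 184 CPM and at 77.5 and 150.3 CPM, a fold of 2.62 (2.36 to 2.92) and 1.94 (1.87 to 2.01). The repetitive folds of both genes were below 2 and their intervals did not overlap those of the single dose, but the exposures differ in dose, time and library, so the values stand side by side. Nid2 was low in the lung, with 13 and 72 UMIs after the single dose (2.18 and 6.87 CPM, fold 3.16, 1.74 to 6.22, below the filter) and 3.52 and 7.97 CPM after repetitive doses (fold 2.27, 1.92 to 2.68). After adding 1 CPM its repetitive log2 ratio was 0.99, just under the limit of 1, and that of Hspg2 was 0.95. Nid2 passed the filter there only through its level in the bleomycin library. Without gating, whole libraries gave similar levels: Col4a1 was at 146 and 533 CPM in the single-dose libraries and at 244 and 616 CPM in the repetitive libraries.

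**Figure D2:**
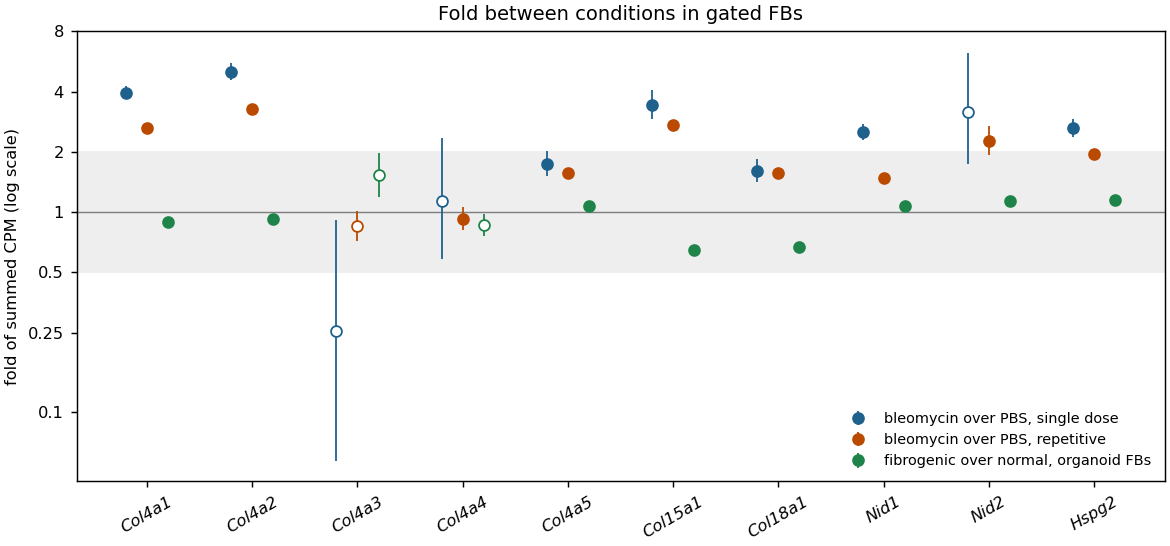
Fold of each member in gated FBs, bleomycin over PBS for the single-dose and repetitive libraries and fibrogenic over normal for the organoids, on a log axis; bars are exact 95% counting intervals, the grey band spans 0.5 to 2 and open circles are members below the filter of 5 CPM. Col4a1, Col4a2 and Col15a1 lie above the band in both lung exposures, and no member past the filter lies outside it in the organoids; repetitive Nid2 lies above it at 2.27 because this plot adds no CPM.

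FBs were then split by markers of the alveolar FB (Tcf21, Ces1d, Slc7a10, Wnt2, Limch1), of the adventitial FB (Pi16, Col14a1, Ly6a, Clec3b, Serpinf1) and of injury (Cthrc1, Spp1, Postn, Adam12, Tnc). The question was whether the members differ among FBs and whether the bleomycin difference is also seen within a subgroup. The subgroup shares differed between libraries: alveolar FBs were 57.0% and 19.1% of the single-dose PBS and bleomycin FBs and 65.5% and 20.3% of the repetitive ones. The injury list gave 0 and 1 barcodes in the PBS libraries and 110 and 341 in the bleomycin libraries. FBs with mixed subgroup markers were 27.1% and 45.4% of the single-dose PBS and bleomycin FBs and 20.6% and 31.0% of the repetitive ones. Those with no subgroup call were 3.57% and 3.82%, and 1.69% and 20.1%. In the repetitive PBS and bleomycin libraries the uncalled FBs had medians of 2502 and 1036 UMIs. A call needs at least 3 marker UMIs, so all of these shares can depend on depth. The subgroup levels below leave out all mixed and uncalled FBs, and thus larger shares of the bleomycin libraries.

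Within alveolar FBs, Col4a1 was at 127 CPM in single-dose PBS, 456 CPM in single-dose bleomycin, 234 CPM in repetitive PBS and 652 CPM in repetitive bleomycin. The folds of 3.58 (3.19 to 4.03) and 2.79 (2.71 to 2.86) were near those of all FBs, so the difference was also present among cells of 1 marker group. The epithelial transcript Sftpc in alveolar FBs was at 62.8 and 66.9 CPM in the single-dose libraries and at 17.3 and 98.0 CPM in the repetitive ones. In gated FBs with no Sftpc UMI, a setting added after seeing the data, the Col4a1 log2 ratios were 2.04 and 1.37, beside 1.97 and 1.39 in all gated FBs. For Col4a2 the alveolar folds were 4.59 and 3.53. Hspg2 was 2.95 and 2.03 times higher, Nid1 2.64 and 1.61 times, and Col4a5 2.00 and 2.04 times.

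Within adventitial FBs the folds of Col4a1, Col4a2, Col4a5, Nid1 and Hspg2 were smaller after repetitive doses than after the single dose. Col4a1 was at 156 and 378 CPM after the single dose (fold 2.42) and at 252 and 360.1 CPM after repetitive doses (fold 1.43). Nid1 was at 151 and 386 CPM after the single dose (fold 2.57) but at 348 and 354 CPM after repetitive doses (fold 1.02, 0.962 to 1.07), where no difference was detectable. Col4a2 had folds of 6.10 and 2.01 and Hspg2 of 1.99 and 1.20. Col4a5 was 2.00 times higher after the single dose, and after repetitive doses its fold of 1.02 (0.924 to 1.12) included 1. The adventitial FBs of the repetitive bleomycin library were shallow, with a median of 2631 UMIs against 7977 in repetitive PBS.

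Col15a1 differed widely among FBs. In alveolar FBs it was at 3.89, 5.53, 6.49 and 20.7 CPM in single-dose PBS, single-dose bleomycin, repetitive PBS and repetitive bleomycin, and in adventitial FBs at 140.3, 141, 151 and 163 CPM. The adventitial level was thus higher in each of the 4 libraries, by 36.1-fold (20.1 to 70.2) in single-dose PBS and 23.2-fold (20.2 to 26.7) in repetitive PBS, down to 7.89-fold in repetitive bleomycin. Injury-marked FBs were higher still, at 249 CPM after the single dose and 218 CPM after repetitive doses.

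The bleomycin difference of Col15a1 in all FBs was not seen within adventitial FBs, where its fold was 1.00 (0.779 to 1.29) and 1.08 (0.999 to 1.18). In alveolar FBs it was 1.42 (0.577 to 3.44) and 3.18 (2.72 to 3.73). Adventitial and injury-marked FBs, the groups with a high Col15a1 level, made up larger shares of the bleomycin libraries: adventitial FBs were 12.4% and 19.0% of single-dose PBS and bleomycin FBs and 12.2% and 24.9% of the repetitive ones. How much of the difference over all FBs these shares account for was not tested, and the shares can themselves depend on depth.

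**Figure D3:**
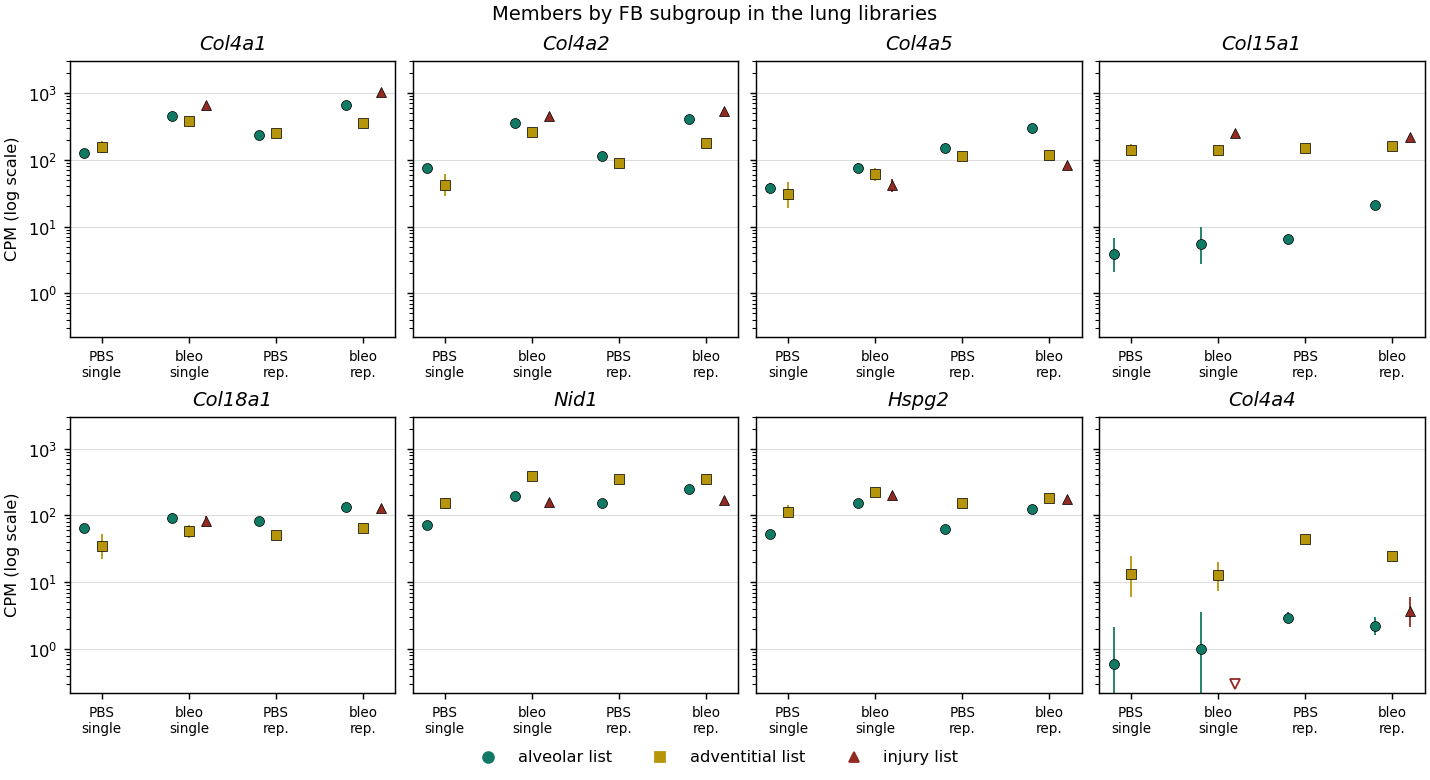
Level in CPM (log axis) of 8 members in alveolar, adventitial and injury-marked FBs of the 4 lung libraries, with exact 95% Poisson intervals; groups under 20 barcodes are not drawn. Col15a1 and Col4a4 lie higher in adventitial than in alveolar FBs in each library, Col18a1 lies lower, and Col4a1 lies higher with bleomycin within both groups.

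Other members also divided the FB subgroups. In repetitive PBS, adventitial FBs held Nid1 at 348 CPM against 154 CPM in alveolar FBs (fold 2.26), Hspg2 at 151 against 62.2 CPM (fold 2.43) and Nid2 at 14.3 CPM (fold 7.38). Col18a1 went the opposite way, at 50.7 CPM in adventitial and 82.0 CPM in alveolar FBs, a fold of 0.618, and its fold was below 1 in all 4 libraries (0.489 to 0.630). Col4a5 was lowest in injury-marked FBs, at 41.2 CPM against 76.0 CPM in alveolar FBs of the single-dose bleomycin library and at 84.6 against 302 CPM in the repetitive one.

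Col4a3 and Col4a4, low in FBs as a whole, were at higher levels in adventitial than in alveolar FBs. In repetitive PBS, Col4a4 was at 44.6 CPM in adventitial and 2.95 CPM in alveolar FBs (fold 15.1, 12.1 to 19.0), and Col4a3 at 28.0 and 1.86 CPM (fold 15.1). A Col4a4 UMI was found in 19.8% of the adventitial and 2.77% of the alveolar FBs. The alveolar type 1 marker Ager was at 0.361 CPM in these adventitial FBs and 0.768 CPM in the alveolar FBs. The mesothelial marker Msln was at 0 in the adventitial FBs, but the mesothelial marker Upk3b was at 4.33 CPM (24 UMIs) against 0.149 CPM in alveolar FBs, and the part of mesothelial RNA in the Col4a3 and Col4a4 levels was not tested. In repetitive bleomycin the adventitial levels were 24.8 CPM for Col4a4 and 12.6 CPM for Col4a3, 0.556 (0.468 to 0.661) and 0.450 (0.358 to 0.567) times the PBS levels. Upk3b in these FBs was at 2.75 CPM. After the single dose the adventitial folds, from 4 to 17 UMIs a group, were 0.966 (0.407 to 2.46) for Col4a4 and 0.341 (0.0707 to 1.44) for Col4a3, and both intervals included 1.

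In organoids the question was whether FBs from bleomycin lungs differ from FBs of PBS lungs after culture with AEC2s. No member passed 2-fold: of the 8 members past the filter 0 were higher and 0 lower, where 0.292% of 9918 genes were higher and 0.837% were lower. The median log2 ratio was -0.01 for the members and -0.00 for all genes. Col4a1 was at 984 CPM in normal and 877 CPM in fibrogenic organoid FBs (fold 0.891, 0.884 to 0.898) and Col4a2 at 507 and 469 CPM. Nid1 was at 243 and 259.8 CPM, Nid2 at 112 and 128 CPM, Hspg2 at 114 and 131 CPM and Col4a5 at 69.7 and 74.3 CPM, all within a fold of 1.15.

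Collagens XV and XVIII stood lowest in this comparison. Col15a1 was at 216 and 139.6 CPM (fold 0.645, 0.634 to 0.657) and Col18a1 at 21.8 and 14.5 CPM (fold 0.665, 0.629 to 0.704). Among injury-marked FBs, which were 81.3% of the normal and 69.9% of the fibrogenic organoid FBs, the folds were 0.669 and 0.719. This list also marked most FBs from PBS mice here, unlike in the lung, so in culture the name stands for the marker list only. The organoid FBs with no subgroup marker call were 250 and 1029 barcodes, with medians of 2832 and 1392 UMIs. Among them Col18a1 had a fold of 0.259 (0.165 to 0.394), Col4a5 of 0.421 (0.338 to 0.522) and Col15a1 of 0.793. The median log2 ratio of all genes there was -0.22, and the share of all genes lower by 2-fold was not counted. Sftpc, an epithelial transcript, was at 852 CPM in the normal and 4270.3 CPM in the fibrogenic barcodes of this group. The part of epithelial RNA in these folds was not tested. The thinned share of FBs with a Col15a1 UMI was 24.3% and 16.8%. Epithelial RNA was also present over all organoid FBs, with the surfactant transcript Sftpc at 1851 and 1293 CPM, and 47 and 129 FBs had no Sftpc UMI. Among those few FBs, a comparison added after seeing the data, 1 of 9 members past the filter was higher by 2-fold or more and 4 were lower, where 13.2% of all genes were higher and 26.0% lower. Barcodes of low depth are more likely to lack a Sftpc UMI, and the depth of these FBs is not given here.

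Both kinds of organoid FB stood apart from lung FBs in several members, although culture and library differ between them and no comparison was made. Nid2 was at 2.18 to 7.97 CPM in the 4 lung libraries and at 112 to 128 CPM in the organoids. Col18a1 was at 54.3 to 118 CPM in the lung and at 14.5 to 21.8 CPM in the organoids. Pdgfra itself was at 75.3 and 70.4 CPM in organoid FBs and at 296 to 593 CPM in lung FBs.

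Within the organoids, FBs and epithelium shared some members and divided others. FBs held more Col4a1, Col4a2, Hspg2, Col15a1, Nid1 and Nid2, epithelium held more Col4a3 and Col4a4, and Col4a5 and Col18a1 were at similar levels with the main gate, which held few AEC2s. Without Cd74 in the gate epithelium held more Col18a1. All 10 members passed the filter in both libraries, Col4a3 and Col4a4 only through epithelium, Nid2 only through FBs, and Nid1 in the normal organoids only through FBs. In the normal organoids 6 were higher in FBs by 2-fold or more and 2 lower, where 13.2% of 10483 genes were higher and 16.1% lower, and in the fibrogenic organoids again 6 and 2, where 13.5% of 10307 genes were higher and 15.3% lower. The member medians were 1.44 and 1.62 on the log2 scale, and those of all genes were -0.21 and -0.18.

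The epithelial group held 349 and 581 barcodes, of which 55.6% and 53.2% carried transitional markers and few carried AEC2 markers. The leukocyte list contains Cd74, which AEC2s also express, so a barcode rich in Cd74 did not pass. A gate without Cd74, chosen after seeing the data, held 2030 and 1969 epithelial barcodes with Sftpc at 68031 and 60643 CPM, and its values are given beside the others where they differ. FB transcripts in the epithelial group can be free RNA or come from barcodes that hold several cells, which were not told apart: 7 FB genes not used for gating (held-out FB genes) were at a median of 1.11% of their FB level in the normal and 3.95% in the fibrogenic organoids, the highest at 3.19% and 5.32%. The summed FB markers in epithelium were 90.2 and 209 CPM, with all 7 detected.

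Nid1, Nid2 and Col15a1 were at or near those levels in epithelium. Col15a1 was at 216 CPM in FBs and 6.41 CPM in epithelium of the normal organoids (33.8-fold, 26.4 to 43.8) and at 139.6 and 8.63 CPM in the fibrogenic organoids (16.2-fold, 13.4 to 19.7). Nid1 was 51.6-fold (38.8 to 70.3) and 23.3-fold higher in FBs, and Nid2 139-fold (70.7 to 323) and 40.6-fold higher. Their epithelial levels were 0.718% to 6.18% of the FB level, beside 0.462% to 5.32% for the held-out FB genes over both libraries.

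Col4a1, Col4a2 and Hspg2 were above the held-out FB genes in epithelium, as shares of their FB level. Col4a1 was at 224 and 242 CPM, 22.8% and 27.7% of the FB level, and Col4a2 at 154 and 153 CPM, 30.3% and 32.7%. FBs were 4.39-fold (4.21 to 4.58) and 3.62-fold higher for Col4a1 and 3.30-fold and 3.06-fold higher for Col4a2. Hspg2 was at 50.2 and 41.7 CPM in epithelium, and FBs were 2.28-fold and 3.15-fold higher. Without Cd74 in the gate, epithelial Hspg2 was at 12.4 and 14.3 CPM and Col4a1 at 265 and 302 CPM, so the distance widened for Hspg2 and narrowed for Col4a1.

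The α3 and α4 chains were at higher levels in epithelium. Col4a3 was at 92.2 and 106 CPM in epithelium and at 0.823 and 1.26 CPM in FBs of the normal and fibrogenic organoids, 112-fold (90.9 to 139.7) and 84.4-fold (72.8 to 98.2) higher in epithelium. Col4a4 was at 91.2 and 101 CPM against 3.61 and 3.11 CPM, 25.3-fold and 32.4-fold higher. Col4a5, whose chain joins theirs, was at 80.6 and 90.2 CPM in epithelium and 69.7 and 74.3 CPM in FBs, folds of 0.865 and 0.824 for FBs over epithelium. Without Cd74 in the gate its epithelial level was 34.8 and 41.3 CPM, and the log2 ratios of FBs over epithelium turned to 0.97 and 0.82. For Col18a1 the FB over epithelium folds were 0.895 and 0.855, and without Cd74 its log2 ratios were -1.39 and -1.58, which made 3 members lower in FBs. In the lung the gate without Cd74 held 34 and 25 epithelial barcodes of the repetitive PBS and bleomycin libraries, too few for a comparison. Their Col18a1 was at 4.58% and 6.07% of the FB level, unlike in the organoids. Col4a2 was at 115% and 16.3% of it, and Col4a3 at 777% and 1323%.

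**Figure D4:**
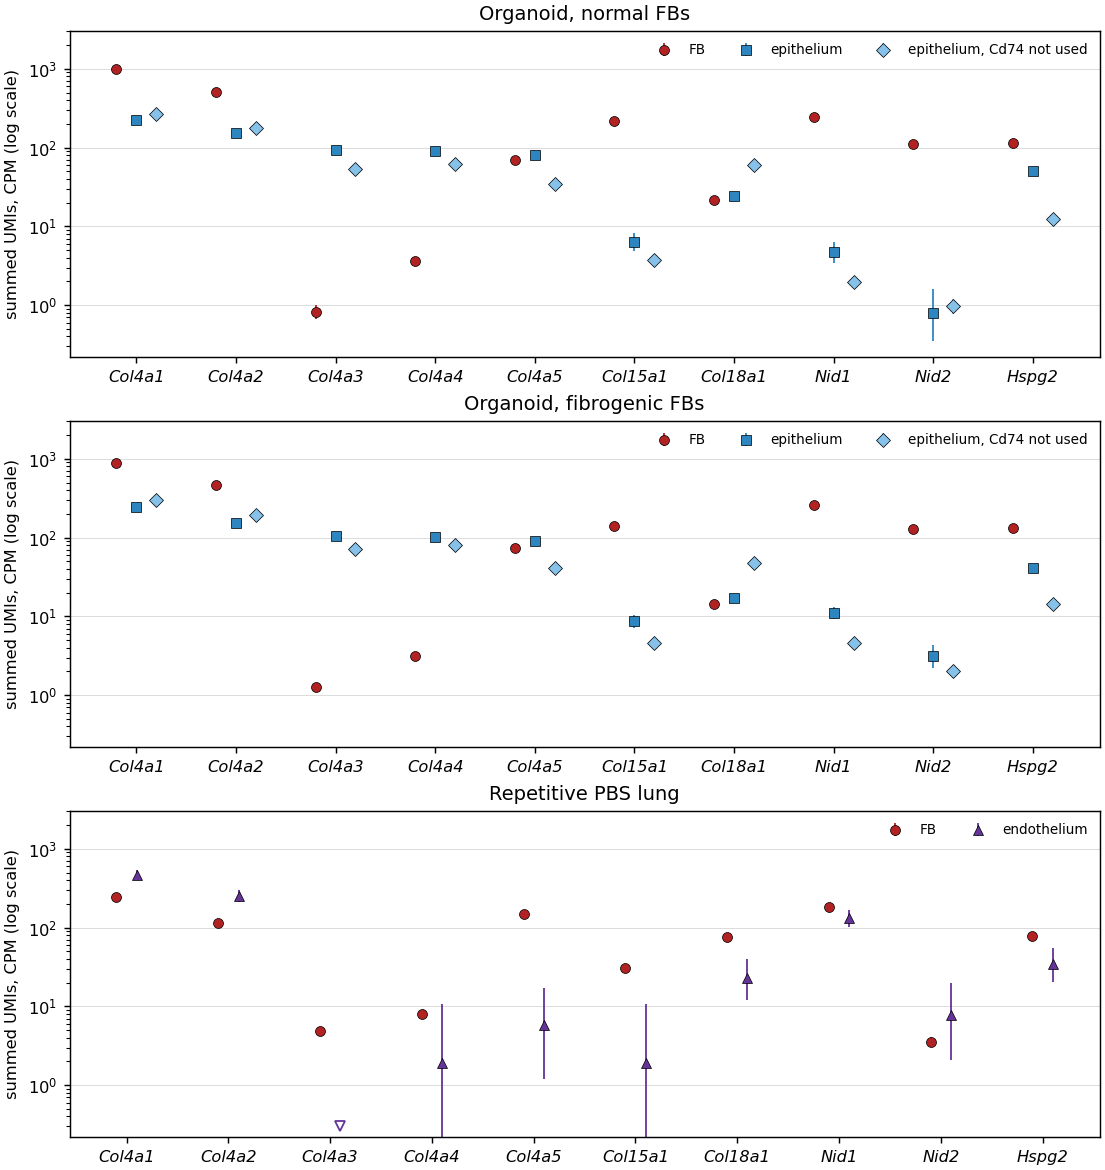
Level of each member in CPM (log axis) in gated FBs and epithelium of the normal and fibrogenic organoids, with the epithelial gate with and without Cd74, and in FBs and endothelium of the repetitive PBS library; bars are exact 95% Poisson intervals and an open triangle marks 0 UMIs. Col4a3 and Col4a4 lie at 91.2 to 106 CPM in epithelium of the gate with Cd74 and at 0.823 to 3.61 CPM in FBs, and Col4a1 and Col4a2 lie higher in endothelium than in FBs.

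Levels of several members differed between types of alveolar epithelial cell. In the gate without Cd74, AEC2 markers (Lamp3, Slc34a2, Abca3, Etv5, Napsa) gave 1197 and 919 barcodes, alveolar type 1 (AEC1) markers (Ager, Hopx, Rtkn2, Aqp5, Akap5) gave 183 and 192, and transitional markers (Cldn4, Krt19, Sfn, Fosl1, Itgb6) gave 196 and 315 in the normal and fibrogenic organoids. Col4a3 was at 5.74 CPM in AEC2, 70.8 CPM in transitional and 399 CPM in AEC1 barcodes of the normal organoids, and at 8.09, 49.6 and 392 CPM in the fibrogenic ones. The order was the same in both libraries, and AEC1 barcodes were 69.4-fold (61.6 to 78.5) and 48.4-fold above AEC2 barcodes. The AEC2 transcript Sftpc was at 18159 and 20877 CPM in AEC1 barcodes and at 998 and 358 CPM in transitional barcodes, against 84359 and 84719 CPM in AEC2 barcodes, so the AEC1 group was not free of AEC2 RNA. Col4a4 ran from 11.7 to 65.4 to 455 CPM and from 16.3 to 45.4 to 441 CPM.

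Col4a5 was also highest in AEC1 barcodes, at 113 and 105 CPM, against 18.7 and 18.1 CPM in AEC2 barcodes, a fold of 6.04 and 5.82. All 3 chains of the α3α4α5 network were thus highest in the same group. Col4a1 differed less, at 254 and 300.1 CPM in AEC2, 207 and 201 CPM in transitional and 414 and 437 CPM in AEC1 barcodes. Hspg2 was lowest in AEC2 barcodes (4.43 and 4.74 CPM) and highest in transitional barcodes (55.3 and 39.0 CPM). Col18a1 was highest in AEC2 barcodes, with 75.5 and 69.3 CPM in AEC2, 18.7 and 19.8 CPM in transitional and 8.35 and 4.74 CPM in AEC1 barcodes, so AEC2 barcodes were 9.03-fold and 14.6-fold above AEC1 barcodes. Col4a2 was at 122 to 278 CPM over these groups and highest in AEC1 barcodes, and Col15a1, Nid1 and Nid2 were at 0.553 to 12.0 CPM.

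**Figure D5:**
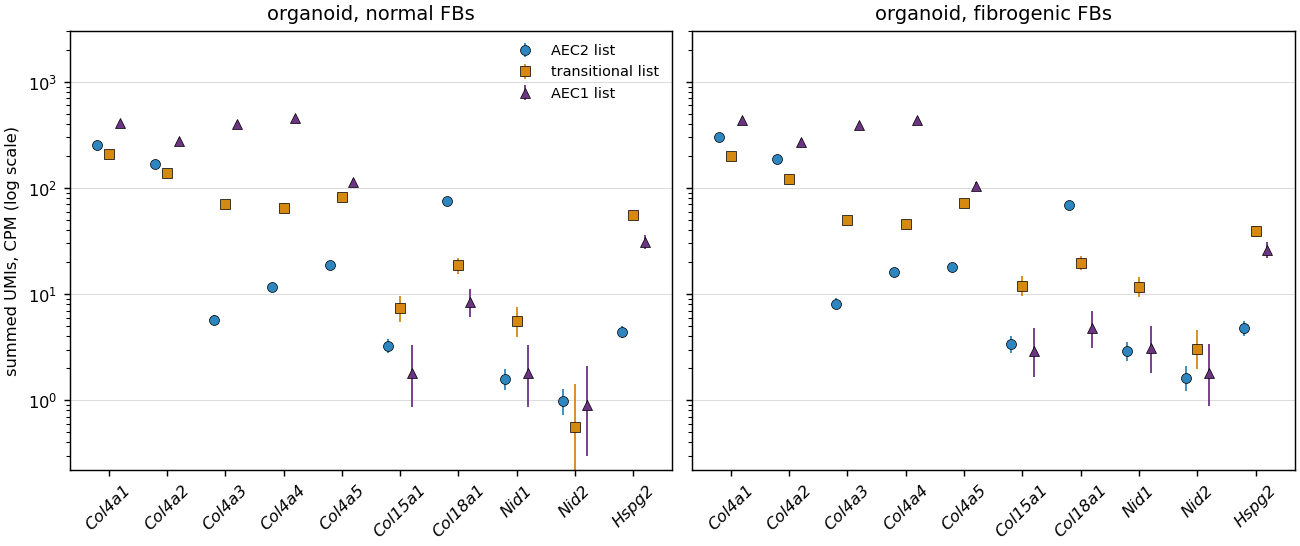
Level of the members in CPM (log axis) in epithelial barcodes with AEC2, transitional or AEC1 markers (gate without Cd74) of the normal and fibrogenic organoids, with exact 95% Poisson intervals. Col4a3 and Col4a4 climb from AEC2 to AEC1 barcodes, to 399 and 455 CPM in the normal organoids, and Col18a1 is lowest in AEC1 barcodes, at 8.35 against 75.5 CPM in AEC2 barcodes.

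Between epithelium grown with fibrogenic and with normal FBs, 1 of 9 members past the filter was higher by 2-fold or more and 0 were lower, where 0.519% of 10023 genes were higher and 1.06% lower. The member was Nid1, which passed the filter only through the fibrogenic organoids, with 47 UMIs (4.71 CPM) in normal and 138 UMIs (11.1 CPM) in fibrogenic organoids, a fold of 2.36 (1.69 to 3.37). These levels were 1.94% and 4.28% of the FB level, within the range of the held-out FB genes, and without Cd74 in the gate Nid1 was below the filter, with a log2 ratio of 0.92. The folds of the type IV collagen chains were 1.08 for Col4a1, 0.995 for Col4a2, 1.15 for Col4a3, 1.10 for Col4a4 and 1.12 for Col4a5. Hspg2 was lower at 0.831 and Col18a1 at 0.696, and the Col15a1 fold of 1.35 (0.978 to 1.86) included 1. Nid2 was below the filter, with 8 and 39 UMIs and a fold of 3.92 (1.81 to 9.72). In the subgroups of the gate without Cd74 the Col18a1 fold was 0.918 (0.873 to 0.966) in AEC2 and 1.06 (0.835 to 1.34) in transitional barcodes. In AEC1 barcodes it was 0.567 (0.337 to 0.937), from 26 fibrogenic and 46 normal UMIs. Within AEC1 barcodes Col4a3 and Col4a4 hardly differed, with folds of 0.984 (0.926 to 1.04) and 0.970. Within transitional barcodes they were lower in the fibrogenic organoids, with folds of 0.700 (0.612 to 0.801) and 0.694, as was Hspg2 at 0.705. Nid1 at 2.12 (1.45 to 3.15) and Col15a1 at 1.63 (1.16 to 2.33) went the opposite way there. Transitional barcodes had a median of 38511 UMIs in the normal and 8309 UMIs in the fibrogenic organoids. Within AEC2 barcodes Col4a3 and Col4a4 were higher, at 1.41 and 1.39.

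The comparison with endothelium rests on 55 endothelial barcodes in the repetitive PBS library against 5519 FBs. All 7 endothelial markers were detected and Pecam1 was at 1162 CPM, while 0 of the 7 epithelial markers were. FB genes not used for gating were at 0 to 19.7% (median 12.8%) of their FB level in these barcodes, and leukocyte markers summed to 1102 CPM. Endothelium held more of the α1 and α2 chains: Col4a1 was at 471 CPM (414 to 534) against 247 CPM in FBs, 1.90-fold (1.67 to 2.16) higher, and Col4a2 at 255 against 114 CPM, 2.23-fold (1.87 to 2.65) higher. Of 8 members past the filter 4 were higher in FBs and 1, Col4a2, lower (0 with ratios centred on all genes), where 14.3% of 10707 genes were higher and 19.4% were lower, and the member median was 0.80 against -0.19 for all genes. Col15a1, 1 of the 4, passed the filter only through FBs, and Nid2 only through 4 endothelial UMIs.

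FBs held more Col4a5, Col15a1, Col18a1 and Hspg2. Col4a5 had 3 UMIs in endothelium (5.79 CPM) against 149 CPM in FBs (25.8-fold, 8.83 to 125), and Col15a1 had 1 UMI (1.93 CPM) against 30.5 CPM (15.8-fold, 2.84 to 625). They were at 3.87% and 6.32% of the FB level, below the median of the held-out FB genes. In the 28 endothelial barcodes of the repetitive bleomycin library Col15a1 had 6 UMIs, 37.6 CPM (13.8 to 81.8) against 83.5 CPM in FBs, a larger share of the FB level than any held-out FB gene had there (at most 7.55%), so its low endothelial level was not seen in both libraries. Col18a1 was at 23.2 CPM against 75.5 CPM (3.26-fold, 1.87 to 6.32) and Hspg2 at 34.7 against 77.5 CPM (2.23-fold, 1.41 to 3.77). Nid1 was at 131 CPM in endothelium and 181 CPM in FBs, a fold of 1.38. Nid2, Col4a3 and Col4a4 had 4, 0 and 1 UMIs in endothelium, too few to set against FBs. For Col4a3 a count of 0 allows up to 7.12 CPM.

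A list of 63 other basement membrane genes, also chosen with earlier results of these data known, was counted in the same comparisons by role. After the single dose 18 of the 46 past the filter were higher by 2-fold or more in FBs and 0 were lower: 8 of 20 structural proteins, 6 of 12 assembly and processing genes, 2 of 7 receptors and 2 of 7 turnover genes. After repetitive doses 13 of 49 were higher and 2 lower, with 6 of 23, 4 of 12, 1 of 7 and 2 of 7 higher in the same order, and both lower genes were structural proteins. The shares of all genes past 2-fold are those given above, 6.60% higher and 3.65% lower after the single dose and 5.58% and 2.22% after repetitive doses. In organoid FBs 1 of 47 was higher and 1 lower, where 0.292% and 0.837% of all genes were, and in organoid epithelium 2 of 45 were higher and 1 lower, where 0.519% and 1.06% were.

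Structural genes higher in FBs of both bleomycin libraries were Col7a1, the anchoring fibril collagen (12.7-fold and 8.82-fold), Col8a1, a short-chain network collagen (29.6-fold and 6.74-fold), Sparc, a collagen-binding protein (3.25-fold in each), Tinagl1 (3.79-fold and 5.04-fold) and Lama5, the laminin α5 chain (4.26-fold and 3.23-fold). Col7a1, Col8a1 and Tinagl1 were at 1.17 to 2.85 CPM in the PBS FBs and passed the filter only through the bleomycin libraries, so they had to differ to be counted and their folds are uncertain in size. Of the genes that build the collagen network, Pxdn, the peroxidase that makes the sulfilimine crosslinks of collagen IV, was at 11.4 and 59.0 CPM after the single dose (5.18-fold) and at 20.3 and 47.3 CPM after repetitive doses (2.33-fold). Loxl2, a lysyl oxidase that crosslinks collagen IV, was 3.02-fold and 2.61-fold higher, and P3h1, a collagen prolyl hydroxylase, 2.32-fold and 2.10-fold. Itga1, the α subunit of the collagen IV-binding integrin α1β1, was 5.73-fold and 5.43-fold higher. Of the proteases, Mmp2, which cleaves type IV collagen, was 2.76-fold and 4.60-fold higher, and its activator Mmp14 3.03-fold and 2.31-fold.

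Between cell groups the wider list held genes high on either side. In the organoids 24 of 54 and 26 of 52 list genes were higher in FBs, beside 13.2% and 13.5% of all genes, and 17 and 16 were lower, beside 16.1% and 15.3%. Genes such as Lama3 and Itgb4 passed the filter only through the side where they were high, so they had to differ to be counted. The laminin α3 chain gene Lama3 was at 75.9 and 83.4 CPM in epithelium and at 0.458 and 0.699 CPM in FBs, and the α6β4 integrin chain Itgb4 was at 48.1 CPM in normal epithelium and 0.551 CPM in FBs. Serpinh1, the collagen chaperone HSP47, was 5.14-fold and 5.25-fold higher in FBs, and Plod2, a lysyl hydroxylase, 9.47-fold and 10.0-fold. Mmp2 was 65.9-fold and 26.2-fold higher in FBs, and the membrane-bound protease Mmp15 was at 73.1 and 89.0 CPM in epithelium against 1.45 and 1.37 CPM in FBs. Against endothelium 24 of 51 list genes were higher in FBs and 11 lower, beside 14.3% and 19.4% of all genes. Tinagl1 (114 against 2.26 CPM), Pxdn (199 against 20.3 CPM), Itga1 (1054 against 13.3 CPM) and Itga6 (313 against 0.488 CPM) were among those higher in endothelium, and Smoc2 (49.2-fold, 8.84 to 1946) was among those higher in FBs. Of these, Tinagl1, Itga6 and Smoc2 also passed the filter only through the side where they were high.

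Across 13 cell groups of the 6 libraries with at least 50 barcodes, the level of Col4a1 as log2 of CPM plus 1 was most like that of its head-to-head partner Col4a2 (Pearson r = 0.966, 9649 genes compared), then Armcx3 (0.961) and Maged2 (0.951). Among the genes most like Col4a3 were Sh2d4a (0.965) and Stard10 (0.948), with its own partner Col4a4 at 0.932. Col15a1 was most like Thbs2 (0.979), Mrap (0.972) and Pappa (0.968). Groups of 1 library share its depth and free RNA, so these values are a description. By the same measure Col4a1 and Col4a3 were at 0.138, so the α1 and α3 chains had unlike patterns over these groups.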

How the data were processed

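The 6 libraries are droplet single-cell RNA sequencing of GFP+ lung cells or organoids. The authors deposited raw UMI counts of each gene in each barcode, made with Cell Ranger 3.0.1 on mm10 per the submitters' processing notes, which also list Seurat 3. The annotation used for the later libraries was not given in the sources used here. Groups came from the labels, and no column was left unmatched.

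The members and all gene lists were chosen with earlier results of these data known. With Python 3.11.15, numpy 2.4.6, scipy 1.17.1 and matplotlib 3.10.9, a barcode was gated when it had at least 3 UMIs from at least 2 genes of a marker list and at least 3 times the UMIs of every other list. The lists were FB, epithelium, endothelium, leukocyte, mesothelium and mural. The mesothelial and mural gates were not set against the FB list, and a barcode that met the FB gate was counted as FB. No doublet caller was run, and barcodes with mixed markers were set aside. Subgroups were split by the same rule. UMIs were summed per group and scaled to CPM. A pseudocount of 1 CPM preceded each log2 ratio. A gene was past the filter at a mean of 5 CPM over both groups and past 2-fold at a log2 ratio of 1 or more either way. Levels and comparisons within a subgroup needed 20 barcodes and other comparisons 50. The comparison of organoid FBs without a Sftpc UMI, with 47 normal barcodes, was below that limit. Exact 95% Poisson intervals were used for levels, conditional binomial intervals for ratios and Clopper-Pearson intervals for shares. With 1 library per condition no test was made. The scripts were tested on simulated data.

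All 10 members were followed in each comparison, and those of low level are given by their range. Genes of the wider list are named per role when past 2-fold in the same direction in both lung exposures, and between cell groups from among the 3 most different of each role, not all of which are named. For likeness, genes reached 20 CPM in at least 1 group, and 1 gene is not reported here. Alternatives changed the gate to 10 times any other list or to the list with most UMIs, kept barcodes of at least 2000 UMIs or at most 10% mitochondrial UMIs, averaged over cells, centred the ratios, used 0.1 CPM, dropped the filter or the gate, or thinned cells to 2000 UMIs. A gate without Cd74 and FBs without a Sftpc UMI were added after seeing the data.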

Additional observations from a re-analysis of the deposited data

Results flagged for a closer look

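Some members went in opposite directions in different comparisons, and none of these differences was tested. As log2 ratios after adding 1 CPM, Col4a1 was at 1.97 in single-dose FBs, 1.39 in repetitive FBs, 0.11 in organoid epithelium and -0.17 in organoid FBs. Col4a2 was at 2.32 and 1.69 in the lung FBs and -0.11 in organoid FBs. Col15a1 was at 1.75 and 1.42 in the lung FBs and -0.63 in organoid FBs, and Col18a1 at 0.68 and 0.63 against -0.56. Hspg2 was at 0.20 in organoid FBs and -0.26 in organoid epithelium.

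Endothelial barcodes of the repetitive bleomycin library were too few for a comparison (28 barcodes), and they held Col4a1 at 1978 CPM (1766 to 2209) and Col4a2 at 983 CPM (835 to 1149), above the 471 and 255 CPM of the 55 endothelial barcodes of the repetitive PBS library. This difference was not tested.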

How the results depend on the processing

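The numbers of members past 2-fold in the single-dose and repetitive FB comparisons stayed within 1.5 times the reported ones under each alternative that was run. Of 710 member ratios under alternatives 516 stayed within their counting interval, 194 lay outside it and 0 changed sign as called values; of 142 counts 134 stayed within 1.5 times and 8 did not. In FBs without a Sftpc UMI (47 and 129 barcodes) of the organoids, 1 member was higher and 4 were lower, where 0 and 0 were counted in all FBs, and of all genes 13.2% were higher and 26.0% lower, where 0.292% and 0.837% were in all FBs; the smaller number of cells is by construction, and the cause was not tested. In organoid epithelium the 1 higher member became 2 with no filter and 0 without Cd74 in the gate. Against endothelium the 1 member lower in FBs became 0 when barcodes went to the list with most UMIs, 0 when ratios were centred, 2 for means over cells and 2 with 0.1 CPM added; the cause was not tested. No paired analysis was possible because each condition has 1 library and the labels give no replicate numbers, and no replicate could be left out. Depth limits Col4a3, Col4a4 and Nid2 in lung FBs and all members in the 55 endothelial barcodes.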
